A study of Mus musculus with 6 samples.

Results

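Squamous and epithelial transcription factors are described here in mammary tumors and adjacent normal mammary glands of BK5.ATF3 mice. The group holds *Trp63* and 8 partner factors of stratified epithelium (*Klf5*, *Grhl1*, *Grhl2*, *Grhl3*, *Ovol1*, *Ehf*, *Elf3* and *Tfap2a*), taken from the table by gene symbol. The group was proposed with earlier results of these data known. All 9 were among the 15280 genes of the expression table. In BK5.ATF3 mice, the bovine keratin 5 promoter drives the transcription factor ATF3 in the basal cells of stratified epithelia and in the myoepithelial layer of the mammary gland. The animals were parous females that had raised a litter, in which tumors arose from 6 to 12 months after birth and were collected once 1.5 cm long. RNA-Seq was performed on 1 tumor (T) and 1 adjacent normal gland (M) from each of 3 mice, so n = 3 for each tissue. Libraries are named by tissue and mouse, and values are given throughout in a fixed order of mice, which is M11035, M11640 and M9232 in the glands, followed by T11035, T11640 and T9232 in the tumors. Both tissues carried the ATF3 transgene, and no library of a mouse without it was compared here. The question is how the level of each factor differed between the tumor and the gland of these mice.

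p63, encoded by *Trp63*, is the factor that basal cells of the epidermis and of other stratified epithelia need in order to form and keep a layered tissue. In the mammary gland it is known from the basal, myoepithelial layer, whereas the grainyhead-like (GRHL) proteins and the epithelial ETS factors EHF and ELF3 act more widely in epithelia, simple and stratified. KLF5, GRHL3, OVOL1 and AP-2α, encoded by *Tfap2a*, are known for roles in keratinocytes, from proliferation in the basal layer to terminal differentiation and barrier formation.

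The 6 libraries held between 4750989 and 7806908 fragments on genes, and levels were given in CPM, fragments scaled to library size, of which 3 fragments made up between 0.393 and 0.610, which was taken as the floor of detection. Values in CPM were compared on the scale log2(CPM + 0.5) with limma, and a gene counted as differentially expressed (DEG) when its adjusted p did not exceed 0.05 and its fold change (FC) reached 2. The floor covers counting error only. The confidence intervals come from the limma fit and rest on the spread between the 3 mice within both tissues, moderated by that of all genes.

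Of the 9 factors, 8 were upregulated in the tumors, 0 were downregulated and *Ehf* was not a DEG. By the same rule, 14.5% of all 15280 genes were upregulated and 13.7% were downregulated. In the 8 DEGs every tumor was above every gland, a pattern that 27.6% of all genes showed. The median log2 FC of the 9 factors was 2.63, beside -0.0028 for all genes. The changes ranged from 0.84 for *Ehf* to 5.97 for *Grhl3* on the log2 scale, and the summed level of the 9 factors was 141, 206 and 330 CPM in glands M11035, M11640 and M9232 against 1143, 1090 and 956 CPM in the tumors of the same mice. These are bulk tissues, in which more cells of a type and more RNA per cell cannot be told apart.

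**Figure D1:**
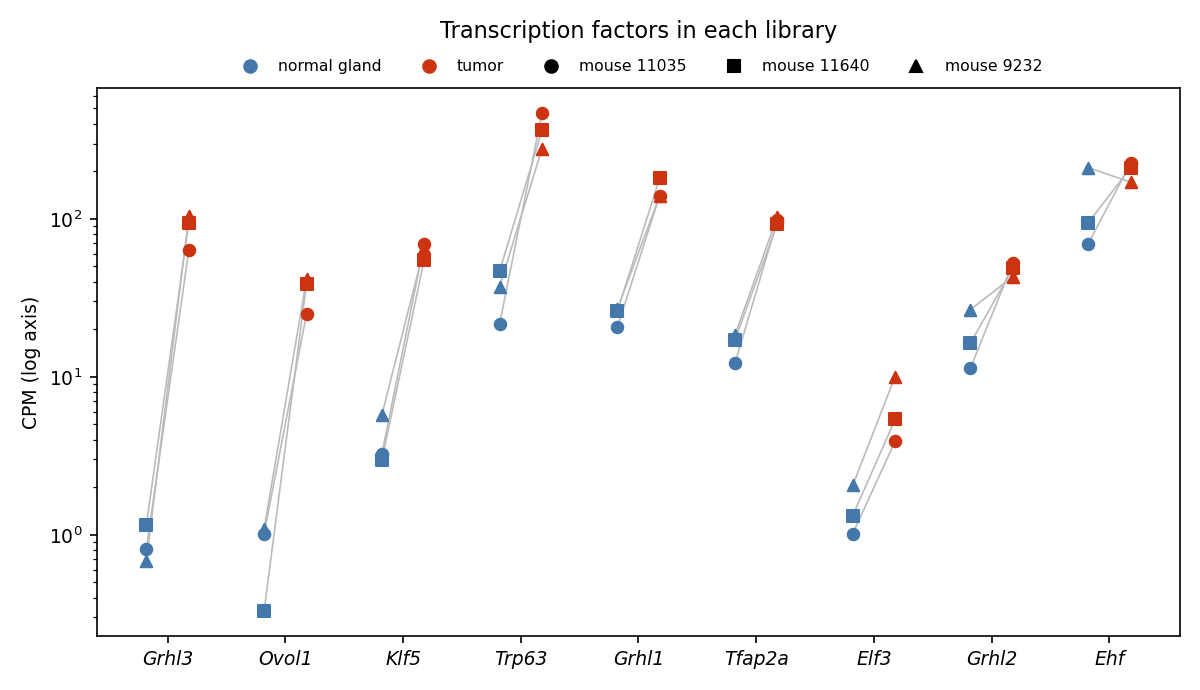
Level of each of the 9 factors in each library, in CPM on a logarithmic axis, with glands and tumors of the same mouse joined by a line. The 3 tumors lie above the 3 glands for every factor except *Ehf*, whose highest gland (211 CPM, M9232) lies between the tumors.

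*Trp63* lies on chromosome 16 (mm9, chr16:25683849-25892188, plus strand). Its level was 21.6, 46.6 and 37.2 CPM in glands M11035, M11640 and M9232 and 467, 363 and 278 CPM in tumors T11035, T11640 and T9232. The lowest tumor stood well above the highest gland, and the mouse with the lowest gland had the highest tumor. From 35.1 ± 12.6 CPM (SD, n = 3) in the glands to 369 ± 94.6 CPM (SD, n = 3) in the tumors, *Trp63* rose by 3.41 on the log2 scale (SE 0.29, limma adjusted p = 4.73e-05). Within the 3 mice, in the same order, the tumor level was 21.7-fold, 7.79-fold and 7.47-fold that of the gland. In the whole table, 368 genes had a larger log2 FC. The annotation lists 8 coding transcripts of *Trp63* with 3 transcription starts, the first at 25683849 and the last 118153 bp downstream at 25802002. Transcripts from the upstream starts encode the TAp63 proteins with an N-terminal transactivation domain and those from the downstream start the ΔNp63 proteins, the main forms in basal cells. A single level per gene was deposited, so the forms cannot be told apart in these values.

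*Klf5* encodes a Krüppel-like zinc finger factor of proliferating epithelial cells and lies at chr14:99697910-99712624 (mm9, plus strand). It was measured at 3.25, 2.97 and 5.75 CPM in the glands and at 69.2, 55.2 and 65.5 CPM in the tumors. The tumors were close to each other, and the lowest was 9.60 times the highest gland. *Klf5* rose from 3.99 ± 1.53 to 63.3 ± 7.27 CPM (SD, n = 3 each), a log2 FC of 3.87 (SE 0.26, limma adjusted p = 1.28e-05). *Tfap2a*, at chr13:40811044-40829192 on the minus strand, encodes AP-2α, which acts in the epidermis and its appendages. Its levels were 12.2, 17.2 and 18.5 CPM in the glands and 97.7, 93.2 and 103 CPM in the tumors of the same mice. With means of 15.9 ± 3.31 and 98.1 ± 5.12 CPM (SD, n = 3 each), *Tfap2a* rose by 2.60 on the log2 scale (SE 0.19, limma adjusted p = 2.02e-05), and the tumors of the 3 mice varied little among themselves. Exons of *Tfap2a* overlap the noncoding gene Gm16989 on the opposite strand, and library strandedness is not given in the sources used here, so reads from both genes may be counted together.

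The 3 grainyhead-like genes encode related DNA-binding factors that act on cell junction and barrier genes, and they differed widely in both level and change. *Grhl3*, at chr4:135097803-135129545 on the minus strand, encodes the member known for epidermal barrier formation and wound closure. In the glands it was near the floor, with 4, 7 and 5 fragments or 0.813, 1.16 and 0.684 CPM. The tumors of these mice reached 63.5, 94.8 and 104 CPM. Among the 9 factors *Grhl3* had the largest log2 FC, 5.97 (SE 0.26, limma adjusted p = 1.76e-06), from 0.884 ± 0.244 to 87.4 ± 21.2 CPM (SD, n = 3 each), and 96 genes of the table had a larger one. Because so few fragments lay behind the gland values, the size of this change moved with the added constant and the tool, between 5.53 and 6.64.

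*Grhl1*, at chr12:25257152-25302256 on the plus strand, encodes a regulator of desmosomal cadherins. It was already well above the floor in the glands, at 20.5, 25.9 and 26.8 CPM, and reached 140, 181 and 140 CPM in the tumors. The groups were far apart and the spread within each was small. *Grhl1* rose by 2.63 on the log2 scale (SE 0.18, limma adjusted p = 1.41e-05), from 24.4 ± 3.40 to 154 ± 23.4 CPM (SD, n = 3 each). *Grhl2*, at chr15:37162791-37293324 on the plus strand, encodes an activator of E-cadherin and claudin genes in simple epithelia. It was measured at 11.4, 16.4 and 26.7 CPM in the glands and at 52.3, 48.6 and 43.0 CPM in the tumors. The order of the mice was opposite in the 2 tissues, and the tumor-to-gland fold was 4.59, 2.97 and 1.61 in the 3 mice, the last being that of M9232. With means of 18.1 ± 7.80 and 48.0 ± 4.68 CPM (SD, n = 3 each), the log2 FC of *Grhl2* was 1.46 (SE 0.28, limma adjusted p = 0.00387), the smallest among the 8 DEGs. Exons of *Grhl2* overlap the gene Gm16136 on the opposite strand. A search of the annotated transcripts found none of another gene that matched a grainyhead-like gene at 95% identity or more over 500 bp or more.

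The differences between the 3 genes were also taken within each library. *Grhl3* minus *Grhl1* was -4.18 ± 0.31 in the glands and -0.83 ± 0.37 in the tumors on the log2 scale (SD, n = 3 each). The log2 change of *Grhl3* was thus larger than that of *Grhl1* by 3.34 and than that of *Grhl2* by 4.51. The change of *Grhl1* was larger than that of *Grhl2* by 1.17. With other added constants or scalings, or 1 library left out, these lay between 2.93 and 3.82, 4.09 and 4.99, and 0.93 and 1.33. The libraries of the 2 tissues did not overlap in any of these 3 differences. How often pairs of genes in general separate the tissues in this way was not determined. In the exact two-sided permutation test each had p = 0.1, the smallest that 3 libraries against 3 can give, and 0.133 after adjustment over the 12 pairs of factors compared.

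The sequence before the start site is shown for the 2 grainyhead-like genes with the larger changes, because they differ most in their gland level and the RefSeq promoter table (GRCm38.p6) holds both. The 250 bases upstream of the first *Grhl1* start (GRCm38.p6, chr12:24572037-24572286, plus strand) and of the *Grhl3* start (GRCm38.p6, chr4:135573633-135573882, minus strand) read 5′ to 3′ as follows, with capitals marking the only motif match in each.
Grhl1: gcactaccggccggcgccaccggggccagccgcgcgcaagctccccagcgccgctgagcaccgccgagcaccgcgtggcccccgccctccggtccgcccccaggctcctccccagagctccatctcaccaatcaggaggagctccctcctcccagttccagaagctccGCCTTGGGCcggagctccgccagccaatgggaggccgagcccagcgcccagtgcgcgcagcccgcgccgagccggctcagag
Grhl3: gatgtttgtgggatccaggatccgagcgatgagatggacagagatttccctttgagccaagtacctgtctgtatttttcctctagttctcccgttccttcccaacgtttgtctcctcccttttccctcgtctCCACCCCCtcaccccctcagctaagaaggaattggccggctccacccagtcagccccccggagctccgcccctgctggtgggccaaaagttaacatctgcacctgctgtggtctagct
This *Grhl1* window had a GC content of 75.6% with 27 CpG dinucleotides, and the *Grhl3* window 56.0% with 8. The window of the second *Grhl1* start, not shown, had 52.0% with 0 CpG dinucleotides. The median over all 32851 promoters of the table was 52.4% with 6 CpG dinucleotides, and 69.2% was the 90th percentile of GC content. The capitals mark the AP-2 motif GCCNNNGGC, 82 bases before the *Grhl1* start and present in 13.7% of all promoters, and the Krüppel-like factor motif GGGNGTGG, on the opposite strand 118 bases before the *Grhl3* start and present in 15.9%. Both strands were also searched for the GRHL motif AACCGGTT (0.116% of all promoters), its relaxed form AACNNGTT (3.64%), which contains it, the ETS motif CCGGAAGT (2.88%), the AP-1 motif TGANTCA (6.75%), the CRE motif TGACGTCA (1.55%) and the p53-family half-site (7.13%). None of these was found in the windows of *Grhl1*, *Grhl3*, *Elf3* and *Tfap2a*, the 4 factors of 9 with a promoter in the table, and *Elf3* and *Tfap2a* held no AP-2 or Krüppel-like factor match either. A match is a string of letters and not a bound site.

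*Ovol1*, at chr19:5549137-5560575 on the minus strand, encodes a zinc finger factor that acts as keratinocytes leave the cell cycle and differentiate. With 5, 2 and 8 fragments, its gland levels of 1.02, 0.330 and 1.09 CPM lay around the floor. The tumors held 24.9, 38.8 and 41.4 CPM. *Ovol1* thus resembled *Grhl3* in being close to undetected in the glands and clearly present in every tumor. Its log2 FC was 4.78 (SE 0.33, limma adjusted p = 1.65e-05), from 0.814 ± 0.420 to 35.0 ± 8.83 CPM (SD, n = 3 each), and it lay between 4.31 and 5.43 over the alternative settings.

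The epithelial ETS factors were among the 3 factors with the smallest changes. *Ehf*, at chr2:103103590-103143435 on the minus strand, encodes a factor of glandular and stratified epithelia. Its levels were 69.5, 94.3 and 211 CPM in glands M11035, M11640 and M9232 and 224, 210 and 171 CPM in the tumors of the same mice. The groups overlapped, since gland M9232 lay above tumors T11640 and T9232. The tumor was higher in 2 of 3 mice, by 3.23-fold for T11035 and 2.23-fold for T11640, and T9232 was 0.809-fold its gland. *Ehf* was 125 ± 75.6 CPM in the glands and 202 ± 27.8 CPM in the tumors (SD, n = 3 each), a log2 difference of 0.84 with a 95% confidence interval of 0.03 to 1.66 and a limma adjusted p of 0.0900. Without gland M9232 it was 1.30 (adjusted p = 0.00137) and *Ehf* became a DEG. In that gland the 10 markers of alveolar luminal cells and milk summed to 54116 CPM, beside 3598 and 5637 CPM in M11035 and M11640, and the part of these cells in the *Ehf* level was not tested.

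*Elf3*, at chr1:137150151-137155049 on the minus strand, encodes an ETS factor induced as epithelial cells differentiate. It was the least abundant factor in the tumors, with 5, 8 and 15 fragments in the glands (1.02, 1.32 and 2.05 CPM) and 21, 41 and 67 fragments in the tumors (3.91, 5.37 and 10.0 CPM). Although the level was low, the tumor-to-gland folds of 3.84, 4.07 and 4.89 were close to each other in the 3 mice. *Elf3* rose from 1.46 ± 0.532 to 6.44 ± 3.20 CPM (SD, n = 3 each), a log2 FC of 1.76 (SE 0.38, limma adjusted p = 0.00659). The change of *Elf3* exceeded that of *Ehf* by 0.91 on the log2 scale, but the within-library differences of the 2 tissues overlapped (exact permutation p = 0.2, adjusted p = 0.218 over 12 pairs). Exons of *Elf3* overlap the noncoding gene Gm16606 on the opposite strand.

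**Figure D2:**
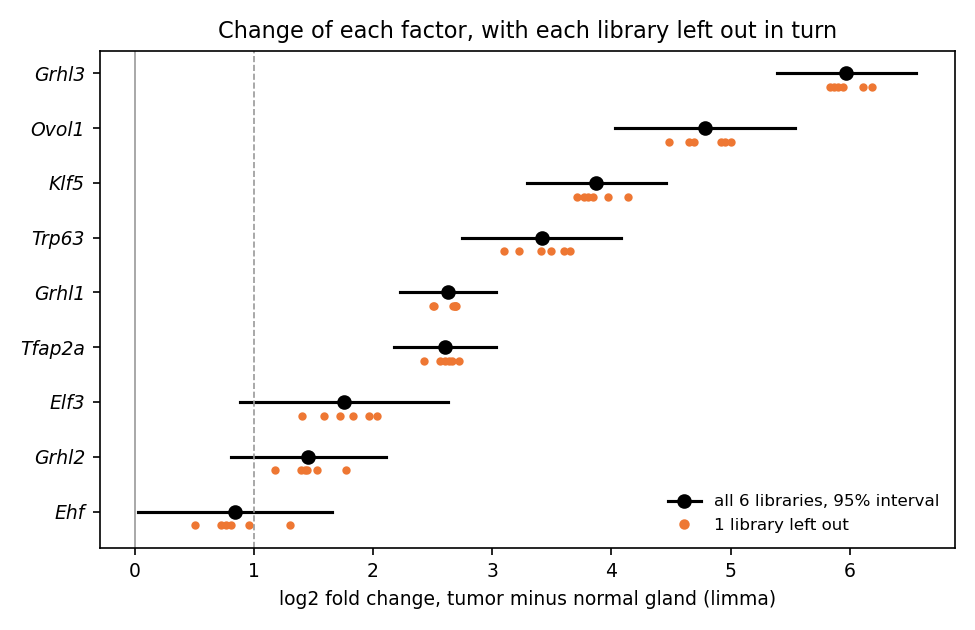
Log2 fold change (tumor minus gland) of each factor from limma on log2(CPM + 0.5), with its 95% confidence interval (black) and, below it, the values with each of the 6 libraries left out in turn (orange), and a dashed line at the threshold of 1. *Grhl3* (5.97) and *Ovol1* (4.78) lie farthest to the right, and *Ehf* (0.84) has its estimate below the threshold of 1 and an interval that reaches closest to 0.

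*Trp63* was set against each of the other 8 factors in the same way. Its change was smaller than that of *Grhl3* by 2.56 on the log2 scale and larger than those of *Grhl1*, *Tfap2a*, *Elf3*, *Grhl2* and *Ehf* by 0.79, 0.81, 1.66, 1.96 and 2.57. In these 6 pairs the libraries of the 2 tissues did not overlap (exact permutation p = 0.1, the smallest possible, and adjusted p = 0.133). The share of all gene pairs that would also separate the tissues was not determined. Against *Klf5* the difference in change was -0.46 (exact permutation p = 0.6) and against *Ovol1* it was -1.37 (exact permutation p = 0.2), with overlapping libraries in both pairs. Over the alternative settings the difference lay between -3.04 and -2.14 for *Grhl3* and between -1.94 and -0.83 for *Ovol1*.

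Levels were compared between the factors only per length, as CPM per kb of annotated exons. In the glands *Ehf* was the highest at 22.4 ± 13.6 CPM per kb, followed by *Grhl1* at 6.98 ± 0.971, *Tfap2a* at 4.92 ± 1.02, *Trp63* at 4.18 ± 1.51, *Grhl2* at 3.29 ± 1.42, *Klf5* at 2.32 ± 0.887, *Elf3* at 0.732 ± 0.266, *Grhl3* at 0.317 ± 0.0875 and *Ovol1* at 0.281 ± 0.145 (SD, n = 3 each). Neighbours overlapped from *Tfap2a* to *Klf5* and for *Grhl3* and *Ovol1*, and the other steps in this order were separate. In the tumors *Trp63* (44.0 ± 11.3 CPM per kb), *Grhl1* (43.9 ± 6.69), *Klf5* (36.8 ± 4.23), *Ehf* (36.2 ± 4.98), *Grhl3* (31.3 ± 7.60) and *Tfap2a* (30.2 ± 1.58) formed a run in which each overlapped the next. *Ovol1* (12.1 ± 3.05) and *Grhl2* (8.71 ± 0.849) were lower and overlapped each other, and *Elf3* (3.22 ± 1.60) was the lowest. Thus the glands had a profile led by *Ehf*, and the tumors one in which 6 factors formed an overlapping run. Within a tumor these 6 were not equal. In T11035 *Trp63* was at 55.7 and *Grhl3* at 22.8 CPM per kb, and *Grhl1* was above *Tfap2a* in every tumor. *Ehf* took between 41.2% and 57.8% of the summed CPM per kb of the 9 factors in the glands and between 12.9% and 16.2% in the tumors. The share of *Grhl3* was between 0.375% and 1.01% in the glands and between 9.13% and 15.6% in the tumors, and that of *Klf5* between 4.21% and 6.35% and between 12.7% and 16.1%. Exon lengths came from GENCODE vM1 and may differ from the RefSeq models that the authors counted on, which would shift the order of genes but not the change of any of them. *Klf5* had the shortest exons, 1721 bp in all, and a longer model would lower its CPM per kb, its share and its place among these 6 factors.

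**Figure D3:**
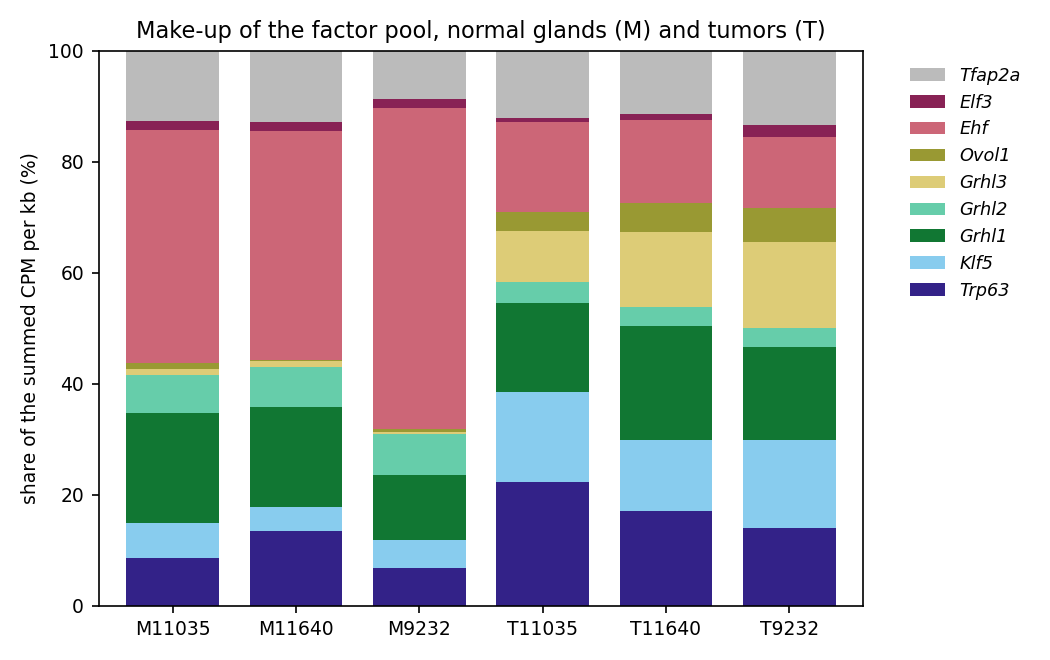
Share of each factor in the summed CPM per kb of the 9 factors, in percent, for each library. *Ehf* takes between 41.2% and 57.8% in the glands and between 12.9% and 16.2% in the tumors.

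Glands and tumors also differed in their epithelial markers, so each factor was set against the mean log2 level of 15 markers of simple epithelium in the same library. That mean was 3.10, 3.39 and 4.12 in the glands and 4.93, 5.10 and 5.48 in the tumors, a difference of 1.63, and 11 of the 15 markers were upregulated. Relative to it, the tumor-minus-gland difference was 4.34 for *Grhl3*, 3.15 for *Ovol1*, 2.24 for *Klf5*, 1.78 for *Trp63*, 0.99 for *Grhl1* and 0.97 for *Tfap2a*, with every tumor above every gland. For *Elf3* (0.13) and *Grhl2* (-0.18) the tissues overlapped. For *Ehf* the difference was -0.79 and every tumor was below every gland. How many of all genes separate the tissues after this subtraction was not determined, since the 27.6% given above is for CPM alone.

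The choice of reference mattered for some of the factors. Against *Epcam*, which encodes an epithelial adhesion molecule and was not a DEG (log2 difference 0.56, limma adjusted p = 0.124), all 9 differences were above 0, from 0.29 for *Ehf* to 5.42 for *Grhl3*. For *Ehf* the tissues overlapped. Against *Cdh1*, the E-cadherin gene, which rose by 2.33 on the log2 scale, *Grhl3* (3.64), *Ovol1* (2.45) and *Klf5* (1.55) kept every tumor above every gland. *Trp63* (1.09), *Grhl1* (0.30) and *Tfap2a* (0.28) then overlapped. *Elf3* (-0.57), *Grhl2* (-0.87) and *Ehf* (-1.48) were below 0, and of these *Elf3* overlapped too. These ratios are descriptions of the same 6 libraries and were given no test. *Epcam* and *Cdh1* alone were chosen as references after the data were seen. *Epcam*, *Cdh1*, *Cldn3*, *Esrp1* and *Rab25*, all among the simple epithelial markers, are also listed below as GRHL targets. For the *Grhl* genes these references are therefore not independent of the factors compared.

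**Figure D4:**
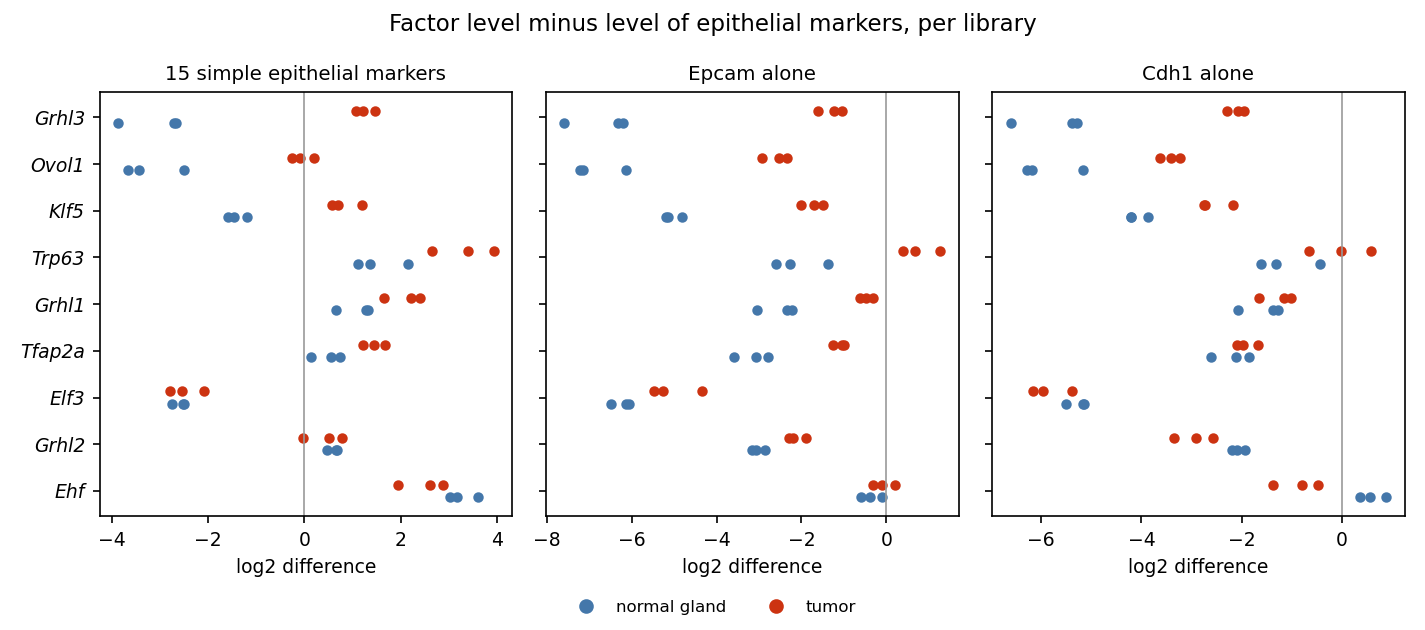
Log2 level of each factor minus that of 15 simple epithelial markers, of *Epcam* alone or of *Cdh1* alone, with 1 point per library and a separate scale in each panel. *Grhl3*, *Ovol1* and *Klf5* keep gland and tumor apart in all panels, and the points of *Ehf* lie lower in the tumors in the first panel and in the *Cdh1* panel.

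Of 32 relatives from the same DNA-binding families in the table, 5 (15.6%) were upregulated and 5 (15.6%) were downregulated, shares near the 14.5% and 13.7% of all genes. Their median log2 difference was 0.07. *Klf4*, a keratinocyte differentiation factor and 1 of 13 Krüppel-like relatives, rose from 29.3 ± 12.2 to 175 ± 46.3 CPM (SD, n = 3 each), by 2.62 on the log2 scale (limma adjusted p = 4.91e-04), while *Klf2*, *Klf9* and *Klf15* fell. Among 12 ETS relatives, *Etv4* and *Ets2* rose by 3.52 and 1.27, and *Ets1* and *Elf5* fell by 1.62 and 2.59. *Elf5*, the ETS factor of milk-producing alveolar cells, was measured at 23.2, 36.8 and 82.2 CPM in the glands and at 8.75, 6.03 and 5.09 CPM in the tumors (limma adjusted p = 0.00154). It is also 1 of the 10 alveolar and milk markers, all of which were downregulated. Of the p53 family, *Trp73* rose by 2.15 (limma adjusted p = 0.00374), to a level of only 3.51 ± 0.318 CPM, and *Trp53* differed by 0.26 (adjusted p = 0.258). The AP-2γ gene *Tfap2c* rose by 1.90 (adjusted p = 0.00359), whereas *Tfap2b* differed by -0.31 (adjusted p = 0.743). None of the 3 relatives from the CP2 branch of the grainyhead family was a DEG, and *Tfcp2l1* among them varied between 9.15 and 79.3 CPM within the glands alone. *Ovol2*, *Ovol3*, *Spdef*, *Tfap2d* and *Tfap2e* were not analysed here.

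Of 26 other factors of stratified epithelium, 16 (61.5%) were upregulated and 2 (7.69%) were downregulated, beside 14.5% and 13.7% of all genes. Their median log2 difference was 1.62. *Dlx3*, a homeobox gene of epidermal differentiation, had all 3 glands at or under the floor, and tumor levels at least 37.2-fold higher (limma adjusted p = 1.49e-05). *Bnc1*, which encodes the basal keratinocyte protein basonuclin, rose by 4.54 (adjusted p = 3.09e-05). *Pou2f3* was at least 14.0-fold higher, with its glands also at or under the floor (adjusted p = 7.86e-05). The falls were those of *Satb1*, from 171 ± 89.7 to 12.3 ± 1.03 CPM (SD, n = 3 each), and of *Cebpa*, from 72.7 ± 15.7 to 18.5 ± 7.45 CPM. *Satb1* is also abundant in T cells and *Cebpa* in adipocytes, and the 8 T cell markers and the 12 adipocyte markers were all downregulated in the tumors. The part of these cells in both falls was not tested.

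Genes known to be controlled by p63 mostly rose. Of 25 such genes, 22 were upregulated, beside 14.5% of all genes, and *Satb1* was downregulated. *Dst* (log2 difference -0.44) and *Chuk* (-0.11) were not DEGs, and the median was 3.17. The largest changes were 5.75 for *Perp*, which encodes a desmosomal membrane protein, 5.75 for the basal keratin gene *Krt14* and 5.62 for the desmoplakin gene *Dsp* (limma adjusted p = 6.97e-06, 1.27e-05 and 1.90e-06). *Krt14* went from 11.5 ± 7.32 to 585 ± 129 CPM (SD, n = 3 each). Several of these genes are markers of squamous cells in general, so their rise is not a separate measure of p63 activity.

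Of 13 genes known as targets of the GRHL proteins, 11 (84.6%) were upregulated and 0 were downregulated, beside 14.5% and 13.7% of all genes. Their median log2 difference was 3.06. *Cdh1*, *Epcam*, *Cldn3*, *Esrp1* and *Rab25* of this list are also simple epithelial markers, so these counts are not a separate measure of GRHL activity. The desmosomal cadherin genes *Dsg1a* (7.85) and *Dsg1b* (7.53) are near-identical copies whose separate values are uncertain. *Tgm3*, which encodes a transglutaminase of the cornified envelope, had its glands at or under the floor, with tumors at least 238-fold higher (limma adjusted p = 1.04e-06). Of the other targets, *Cldn4* rose by 3.99 (adjusted p = 1.48e-04) and *Cdh1* by 2.33 (adjusted p = 2.49e-04), and the 2 targets that were not DEGs were *Epcam* (0.56) and *Cldn3* (0.10, adjusted p = 0.880).

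GRHL2 and OVOL1 are known as opponents of the factors of the epithelial-mesenchymal transition (EMT), and 7 of these were in the table. *Snai2* (1.69), *Snai1* (1.60), *Twist2* (1.33) and *Prrx1* (1.07) were upregulated, *Zeb1* was downregulated (-1.17, limma adjusted p = 2.66e-04), and *Zeb2* differed by -0.24 (adjusted p = 0.471). The median was 1.07, and 14.5% of all genes were upregulated. Only 1 of the 7 was upregulated without gland M9232, without tumor T11035 or without tumor T9232, and by edgeR with its own expression filter. The fibroblast markers, of which 6 of 10 were upregulated, moved in the same direction, and their part in these 4 rises was not tested.

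**Figure D5:**
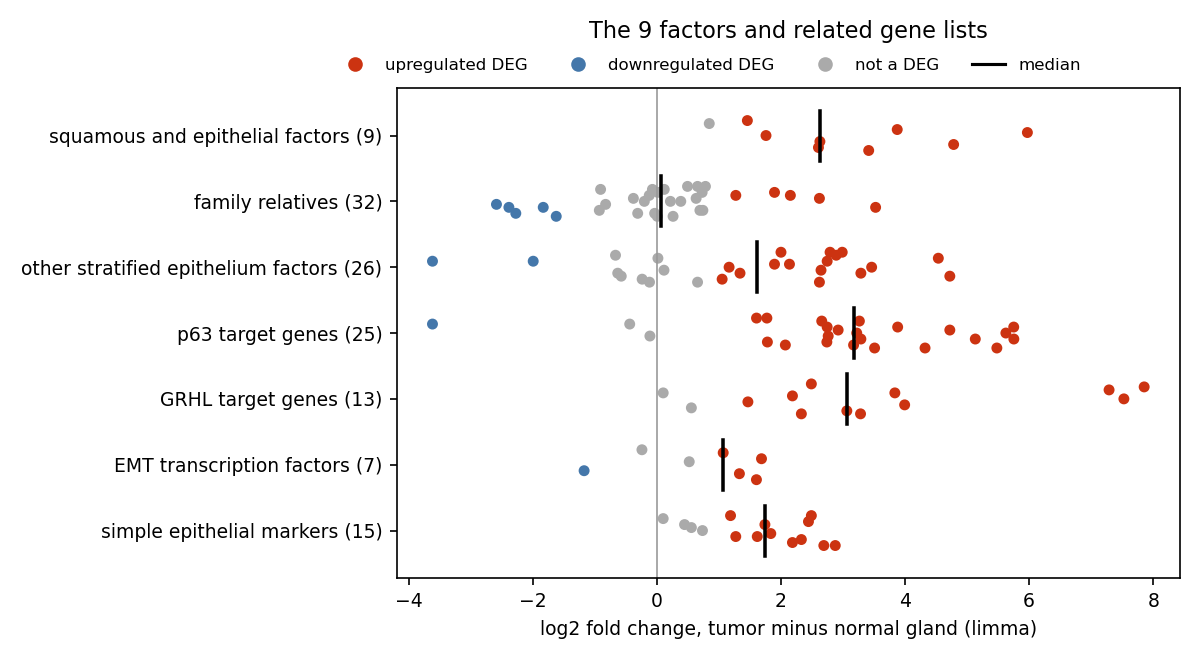
Log2 fold change (tumor minus gland) of every gene in the 9 squamous and epithelial factors and in the gene lists set beside them, with 1 point per gene, coloured as upregulated, downregulated or not a DEG, and the median of each list as a bar. The 9 factors have a median of 2.63 and their family relatives one of 0.07.

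Cell type markers also differed between the tissues, in both directions. Of 15 squamous cell markers, 14 were upregulated, and their summed level was between 39.8 and 77.9 CPM in the glands and between 3346 and 5649 CPM in the tumors. In the glands *Ivl*, *Lor*, *Sprr1a*, *Sprr1b*, *Sprr2d* and *Lgals7* were at or under the floor in all 3 libraries. The 15 simple epithelial markers summed to between 275 and 587 CPM in the glands and between 985 and 1397 CPM in the tumors. The 12 adipocyte markers fell from a sum of between 3639 and 7057 CPM to one of between 170 and 230 CPM, and the 10 alveolar and milk markers from between 3598 and 54116 CPM to between 185 and 925 CPM, where no tumor had *Wap* or *Lalba* above the floor. The part of these shifts in the changes of the 9 factors was not tested beyond the ratios to epithelial markers given above. The 8 B cell markers (between 199 and 530 CPM in the glands, between 8.78 and 11.2 CPM in the tumors) and the 8 T cell markers (between 148 and 406 CPM, and between 19.0 and 31.5 CPM) were all downregulated. The 10 fibroblast markers summed to between 1211 and 4170 CPM in the glands and between 12329 and 14107 CPM in the tumors. In the other lists, DEGs were found among the hormone-sensing luminal (2 up, 4 down of 9), contractile (1 up, 5 down of 9), endothelial (2 down of 8), macrophage (2 up, 1 down of 7) and skeletal muscle markers (3 down of 8). The skeletal muscle markers summed to between 6.29 and 4268 CPM in the glands and between 7.86 and 16.2 CPM in the tumors.

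Finally, the profile of each factor over the 6 libraries was compared with that of 14711 other genes whose mean reached 1 CPM, by the root mean square difference of mean-centred log2 levels. The genes most like *Trp63* were *Ckmt1* (0.21), *2010002N04Rik* (0.26), *Pappa* (0.27), *Tbx3* (0.28) and *Thbs1* (0.29). *Ckmt1* was measured at 2.85, 4.62 and 4.51 CPM in the glands and at 65.5, 61.7 and 43.9 CPM in the tumors, and so shared the lowest tumor value, that of T9232. Those most like *Ehf* were *Epb4.1l3* (0.13), *5430428K19Rik* (0.15), *Ppap2c* (0.15), *Scin* (0.18) and *Cd244* (0.18), each highest among the glands in M9232. Among the factors themselves *Grhl1* and *Tfap2a* had the most similar profiles (0.17), followed by *Grhl2* and *Ehf* (0.34), and *Grhl3* and *Ehf* the least similar (2.64).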

How the data were processed

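RNA-Seq libraries of 3 mammary tumors and the 3 adjacent normal glands of the same mice were grouped by tissue from their labels, and all per-sample columns were used. The submitters' processing notes name CASAVA 1.8.2, TopHat2 2.0.3, HTSeq 0.5.3p9, edgeR 3.6.1 and the build mm9. The authors deposited a normalized expression signal per RefSeq gene, which is the fragments divided by edgeR's effective library size and scaled (CPM). The columns therefore sum to between 952151 and 1041166, and the unit was recorded as a signal where CPM had been assumed, with the same test. All values (100%, tolerance 0.01) were whole multiples of 1 step, so fragments were recovered. No libraries of a tissue were copies (lowest chi-square per degree of freedom 13.0).

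The main test was that of limma 3.58.1 (R 4.3.3), two-sided, applied to log2(CPM + 0.5) without a block and with a trend of variance on mean, and with Benjamini-Hochberg adjustment over all 15280 genes. Alternatives were edgeR 4.0.16 and DESeq2 1.42.0 on recovered fragments, other pseudocounts, a filter at a mean of 1 CPM, no trend, other scalings, the mouse as a block and each library left out. The scripts were tested on simulated data. Mouse numbers pair the libraries, since both come from the same animal. The deviations of gland and tumor from their tissue means correlated with r = 0.107, 0.151 and 0.0168 in the mice of M11035, M11640 and M9232 over 14712 genes. The separate mice are the replicates.

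The 9 factors and the lists were chosen with earlier results of these data known. Named genes are all factors, the 3 largest rises and falls among the DEGs of each gene list, family relatives, and the 5 genes most like *Trp63* and *Ehf*. Other list genes, the mention of *Epcam*, *Cldn3*, *Cdh1*, *Dst*, *Chuk* and *Zeb2* included, were named after their values were seen, and the AP-1 and CRE motifs were added then too. *Spi1* was matched through its older symbol. The lists, compiled by hand, cover family relatives, other stratified epithelium factors, p63 and GRHL targets, EMT factors and 12 cell types. Gene positions and exon lengths are from GENCODE vM1 (mm9). Promoter sequences are from RefSeq (GRCm38.p6), whose table matched 4 of the 9 factors.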

Additional observations from a re-analysis of the deposited data

How the results depend on the processing

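Over 17 alternatives, 8 of the 9 log2 FCs kept their direction and their side of the threshold, and the ninth, that of *Ehf*, crossed it in 1, without gland M9232 (1.30), with values between 0.50 and 1.30 when 1 library was left out. With the mouse as a block in limma, 8 factors were again upregulated, *Ehf* was 0.84 (adjusted p = 0.0937), and all genes gave 2205 upregulated and 2093 downregulated DEGs. The block changed no call of the 9 factors, in limma or in edgeR. The EMT factors called upregulated numbered 1 by edgeR with its expression filter and between 1 and 3 when 1 library was left out. The cause was not tested. Relative to *Epcam* alone, the differences were 2.86 for *Trp63*, 3.32 for *Klf5*, 2.07 for *Grhl1*, 0.90 for *Grhl2*, 5.42 for *Grhl3*, 4.23 for *Ovol1*, 0.29 for *Ehf*, 1.20 for *Elf3* and 2.05 for *Tfap2a*. Relative to *Cdh1* alone they were 1.09, 1.55, 0.30, -0.87, 3.64, 2.45, -1.48, -0.57 and 0.28 in the same order. Relative to all 15 markers, *Grhl2* lay between -0.36 and 0.054 when 1 library was left out and changed sign without tumor T9232, and *Elf3* changed sign with a pseudocount of 1 (-0.040) and without tumor T9232 (-0.071). Depth limits *Grhl3*, *Ovol1* and *Elf3*, whose glands held between 2 and 15 fragments each, so that the sizes of their changes are less certain than the calls.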
